A study of Saccharomyces cerevisiae with 6 samples.

Results

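The genes described here are the G1 and S phase cyclins and the regulators of Start in budding yeast: CLN1, CLN2, CLN3, CLB5, CLB6, PCL1, SWI4, SWI6, MBP1 and WHI5. They were chosen by function, as the genes so named in the platform annotation, with earlier results of these data known. All 10 were measured, each by 1 probe set, among 5449 genes in all, and no filter on low values was used. Expression was measured on 6 Affymetrix arrays. The RNA on 3 of them was from cells that carry yEVenus, a fluorescent protein foreign to yeast, on a multi-copy plasmid, and that on the other 3 was from cells with an empty plasmid. Every culture carried a deletion of SSE1, which encodes an Hsp110 chaperone, so that no array shows the response of a strain with SSE1. Each array was an independent colony grown in SC-MSG medium without leucine to an OD600 of 0.6, in the exponential phase. The comparison asks how the transcriptome responds to a gratuitous protein made from the plasmid, in a background sensitised by the loss of SSE1. No probe set measures yEVenus.

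Start is the point in late G1 at which a yeast cell commits to division. Cln3, bound to the kinase Cdc28, acts on the transcription factor SBF (Swi4 and Swi6), which is held inactive by the repressor Whi5, and on the related factor MBF (Mbp1 and Swi6). SBF and MBF then switch on CLN1, CLN2, PCL1, CLB5 and CLB6, whose products drive budding and DNA replication.

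Of the 10 genes, 4 fell with yEVenus (CLN3, SWI4, MBP1 and WHI5), 1 rose (CLB6), and 5 did not pass the test (CLN1, CLN2, CLB5, PCL1 and SWI6). The test was limma across all genes with Benjamini-Hochberg adjustment and a threshold of 0.05. Over all genes, 70.4% passed that threshold, 29.3% upward and 41.0% downward, so the count of called genes in this group was not above the background. The median log2 difference of the 10 genes was 0.02, against -0.07 over all genes, and their median absolute difference was 0.30, as it was over all genes. The 2 sets of arrays did not overlap for 5 of the 10 genes, against 74.9% of all genes. The genes that fell act before SBF and MBF are activated, or are subunits of these factors, and the gene that rose is one of their targets. The shared subunit gene SWI6 and the targets CLN1, CLN2, PCL1 and CLB5 were not called. The falls of SWI4 and MBP1 were not called once a trend on gene length was removed, as described below. RNA came from whole cultures, in which fewer cells at a stage of the cycle and less RNA per cell cannot be told apart.

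CLN3, the G1 cyclin that acts first and sets the timing of Start, had log2 levels of 8.62, 8.69 and 8.61 on the yEVenus arrays, against 8.93, 9.30 and 9.11 on the empty-plasmid arrays. Every yEVenus array lay below every empty-plasmid array. The log2 difference was -0.47 ± 0.089 (SE; limma, adjusted p = 0.00195), which puts the yEVenus level at 72.2% of the empty-plasmid level. CLN3 (YAL040C) is the only one of the 10 genes on chromosome I, whose genes as a whole were lower with yEVenus. Of 90 genes measured there, 57 fell and 14 rose. Their median log2 difference was -0.44, and 44 of them had a lower difference than CLN3. On the chromosomes of the other 9 genes the medians lay between -0.12 and -0.043. The part of the chromosome in the difference of CLN3 was not tested.

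WHI5, the repressor that Cln3 and Cdc28 displace from SBF, had the smallest SD of the 10 genes in both groups. Its log2 levels were 5.22, 5.25 and 5.24 with yEVenus, against 5.68, 5.69 and 5.56 with the empty plasmid. The groups were well apart and the log2 difference was -0.41 ± 0.053 (SE; limma, adjusted p = 2.96e-04), or 75.5% of the empty-plasmid level. The probe set was dim, with 6.81% of genes having a lower mean level. It still lay above the 17 tag probe sets without a yeast target, whose values had a median of 3.14 and a highest value of 4.32, and above the deleted SSE1, which was at 3.09 to 3.23 with yEVenus and 3.02 to 3.24 with the empty plasmid.

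SWI4 encodes the DNA-binding subunit of SBF. Its log2 levels were 7.46, 7.36 and 7.56 with yEVenus, against 7.99, 7.77 and 8.08 with the empty plasmid, and the groups did not overlap. The difference was -0.49 ± 0.09 (SE; limma, adjusted p = 0.00166). MBP1, the DNA-binding subunit of MBF, had log2 levels of 7.88, 8.21 and 8.26 with yEVenus, against 8.49, 8.51 and 8.66 with the empty plasmid. Replicate 1 of the yEVenus group was the lowest by some way, but the other yEVenus arrays also lay below all empty-plasmid arrays. The difference was -0.44 ± 0.104 (SE; limma, adjusted p = 0.00606). SWI6, the subunit shared by SBF and MBF, had log2 levels of 8.15, 8.33 and 8.30 with yEVenus, against 8.42, 8.14 and 8.31 with the empty plasmid. These values overlapped fully and the difference was -0.03 (95% interval -0.22 to 0.16; limma, adjusted p = 0.754). Whether SWI6 differs from SWI4 and MBP1 in its change was not tested. With a trend of the differences on gene length removed, as described below for all 10 genes, the falls of SWI4 and MBP1 were no longer called (adjusted p = 0.0575 and 0.0684).

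**Figure D1:**
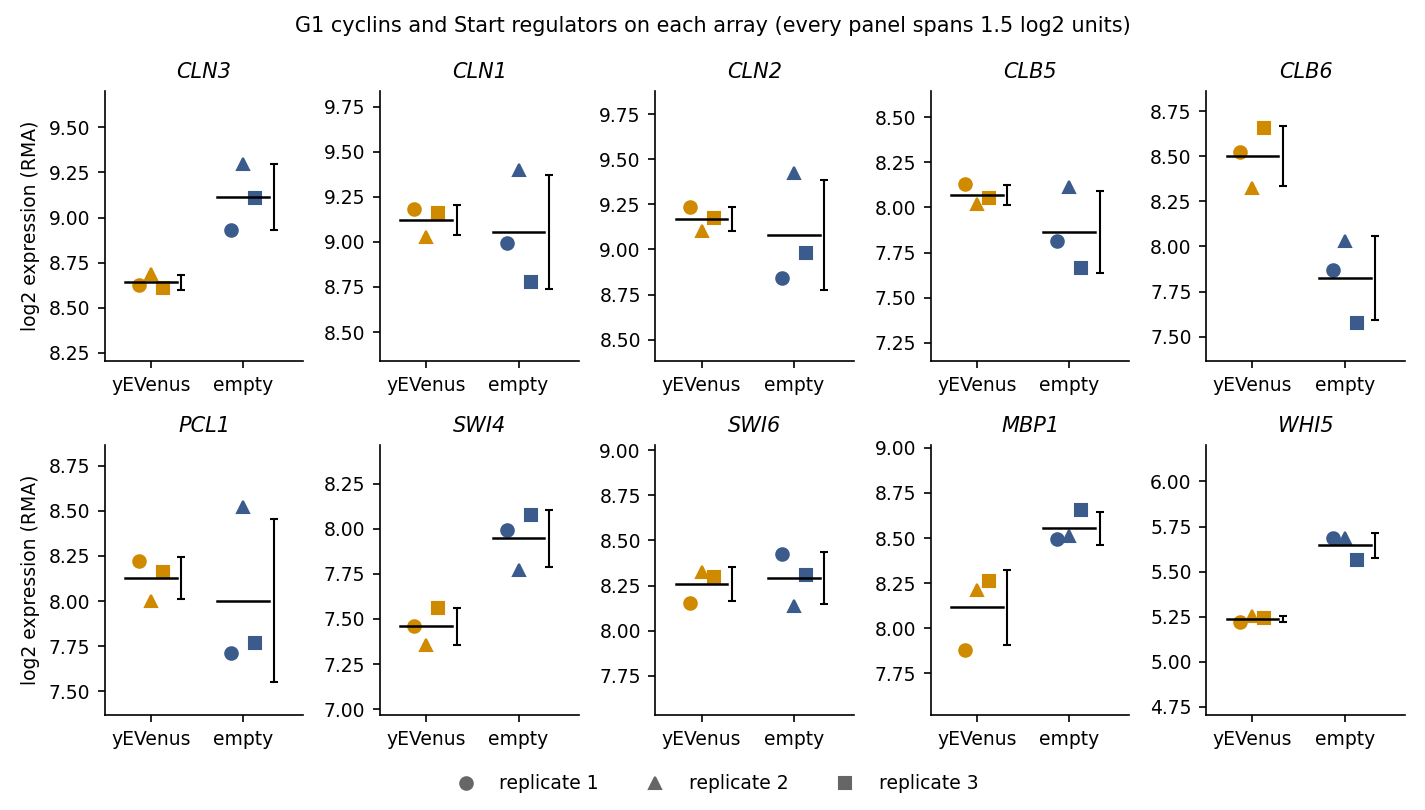
Log2 expression of each gene on the 3 yEVenus arrays (orange, left) and the 3 empty-plasmid arrays (blue, right). Symbols give the replicate, horizontal lines the group mean and error bars 1 SD (n = 3); every panel spans 1.5 log2 units. CLN3, SWI4, MBP1 and WHI5 lie lower and CLB6 higher on all yEVenus arrays, and empty-plasmid replicate 2 (triangle) lies above all other arrays for CLN1, CLN2 and PCL1.

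CLN1 and CLN2 encode the G1 cyclins that act after SBF is switched on, and both were close between the groups. CLN1 had log2 levels of 9.18, 9.03 and 9.16 with yEVenus, against 8.99, 9.40 and 8.78 with the empty plasmid. CLN2 had 9.23, 9.10 and 9.18 with yEVenus, against 8.84, 9.42 and 8.98 with the empty plasmid. For both genes, empty-plasmid replicate 2 was the highest of the 6 arrays, and both of the other empty-plasmid arrays lay below every yEVenus array. The log2 differences were 0.07 for CLN1 (95% interval -0.27 to 0.40; limma, adjusted p = 0.70) and 0.09 for CLN2 (95% interval -0.23 to 0.41; limma, adjusted p = 0.58). On the fold scale these intervals run from 0.832 to 1.32 and from 0.854 to 1.32, and changes within them are not excluded.

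PCL1 encodes a G1 cyclin of the other cyclin-dependent kinase, Pho85, and is an SBF target like CLN1 and CLN2. It had log2 levels of 8.22, 7.998 and 8.16 with yEVenus, against 7.71, 8.52 and 7.77 with the empty plasmid. Again the yEVenus arrays lay between empty-plasmid replicate 2 above and the other empty-plasmid arrays below. The difference was 0.13 (95% interval -0.33 to 0.59; limma, adjusted p = 0.588). The SD among empty-plasmid colonies was 0.452, and 0.807% of all genes had an SD as large or larger in that group; among the yEVenus colonies the SD was 0.116.

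CLB6 and CLB5 encode the B-type cyclins that start DNA replication. CLB6 had log2 levels of 8.52, 8.32 and 8.65 with yEVenus, against 7.87, 8.03 and 7.57 with the empty plasmid. All yEVenus arrays were higher, and the log2 difference of 0.68 ± 0.126 (SE; limma, adjusted p = 0.00181) corresponds to 1.60-fold, with a 95% interval of 1.30 to 1.95. It was the largest change of the 10 genes and, with WHI5, 1 of the 2 that passed a limma test against a minimum change of 1.2-fold (adjusted p = 0.0216 for CLB6 and 0.0455 for WHI5); 32.2% of all genes passed that test. CLB5 had 8.13, 8.02 and 8.05 with yEVenus, against 7.82, 8.11 and 7.67 with the empty plasmid. Its groups overlapped through 1 array, empty-plasmid replicate 2. The difference of 0.20 did not pass the test (95% interval -0.044 to 0.45; limma, adjusted p = 0.121).

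The cyclin genes varied within the empty-plasmid group, where replicate 2 was high. Other arrays also lay off the group mean. For CLB6 replicate 3 deviated by -0.25, against 0.21 for replicate 2, and for CLN3 replicate 1 deviated by -0.18, against 0.18. Relative to the mean of the other empty-plasmid arrays, the log2 level of replicate 2 was higher by 0.78 for PCL1, 0.52 for CLN1, 0.51 for CLN2, 0.37 for CLB5, 0.31 for CLB6 and 0.28 for CLN3. Differences as large or larger were found in 20 of 5449 genes for PCL1, in 43 for CLN1 and in 45 for CLN2, and the median over all genes was -0.0048. SWI4 and SWI6 went the other way, at -0.26 and -0.23. All 6 cyclin genes and WHI5 were highest on that array among the empty-plasmid arrays. Over all genes, the share highest on that array was 31.6%. Of 17 other SBF targets of budding and the cell wall, 15 were highest on it. Of 27 MBF targets of DNA synthesis, 17 were. So were 9 of 17 other regulators of Start, 8 of 14 pheromone-induced genes, 2 of 4 mitotic cyclins and 2 of 4 markers of alpha cells. The counts were 2 of 7 for genes under Mcm1 control, 1 of 6 for the SCF ubiquitin ligase, 3 of 10 for Pho85 and its other cyclins and 2 of 7 for markers of a cells. The SD was larger among empty-plasmid than among yEVenus arrays for 9 of the 10 genes, against 61.4% of all genes. Empty-plasmid replicate 2 was singled out after its values were seen, and the labels give nothing that sets it apart.

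**Figure D2:**
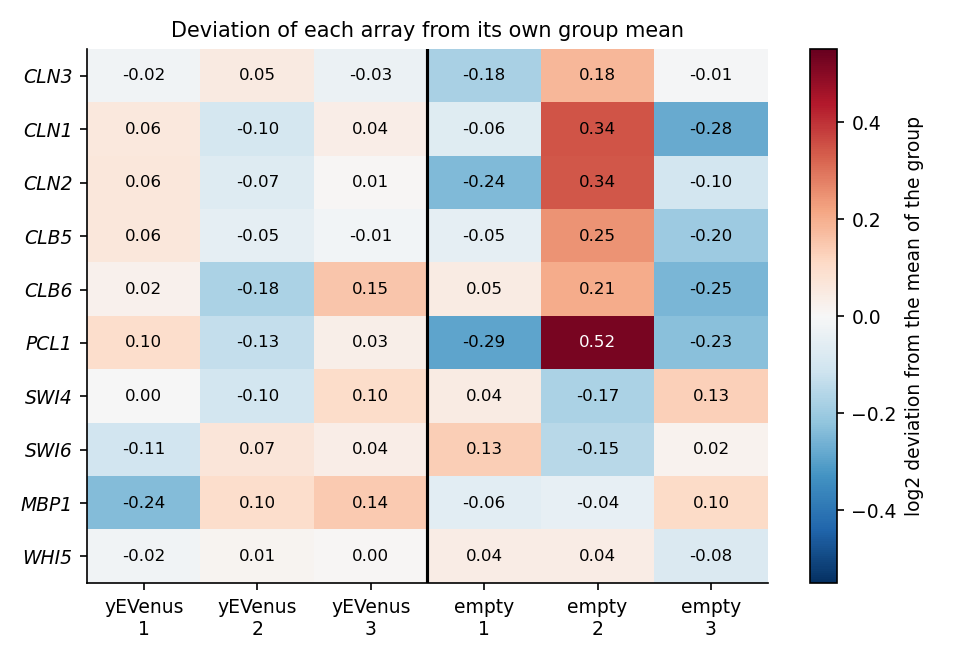
Log2 deviation of each array from the mean of its own group, for the 10 genes (rows) on the 3 yEVenus and the 3 empty-plasmid arrays (columns); red is above and blue below the group mean. The column of empty-plasmid replicate 2 is above its group mean for all 6 cyclin genes, by 0.52 for PCL1, and below it for SWI4 and SWI6.

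Without empty-plasmid replicate 2, the count of genes that rose went up to 5 and the count that fell was again 4, of 10 genes, while 67.4% of all genes passed, 28.1% upward and 39.3% downward. CLN1 then had a log2 difference of 0.24 (limma, adjusted p = 0.0374), CLN2 one of 0.26 (adjusted p = 0.0132), PCL1 one of 0.39 (adjusted p = 0.00336) and CLB5 one of 0.33 (adjusted p = 0.00435). In this fit CLN1, CLN2, PCL1, CLB5 and CLB6 rose, by 1.18-fold for CLN1 to 1.71-fold for CLB6. The array left out was the highest of its group for each of these genes. Leaving it out therefore raised their differences by construction, and the added calls are no separate evidence of a rise. Among other targets in this fit, 5 of 17 SBF targets of budding and the cell wall rose and 4 fell, and 2 of 27 MBF targets of DNA synthesis rose and 8 fell. The falls of CLN3, SWI4, MBP1 and WHI5 kept their direction and stayed past the threshold whichever of the 6 arrays was left out, as did the rise of CLB6. One library therefore decides whether CLN1, CLN2 and PCL1 are called. The call of CLB5 also depended on the normalization and on the length trend, as given below.

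**Figure D3:**
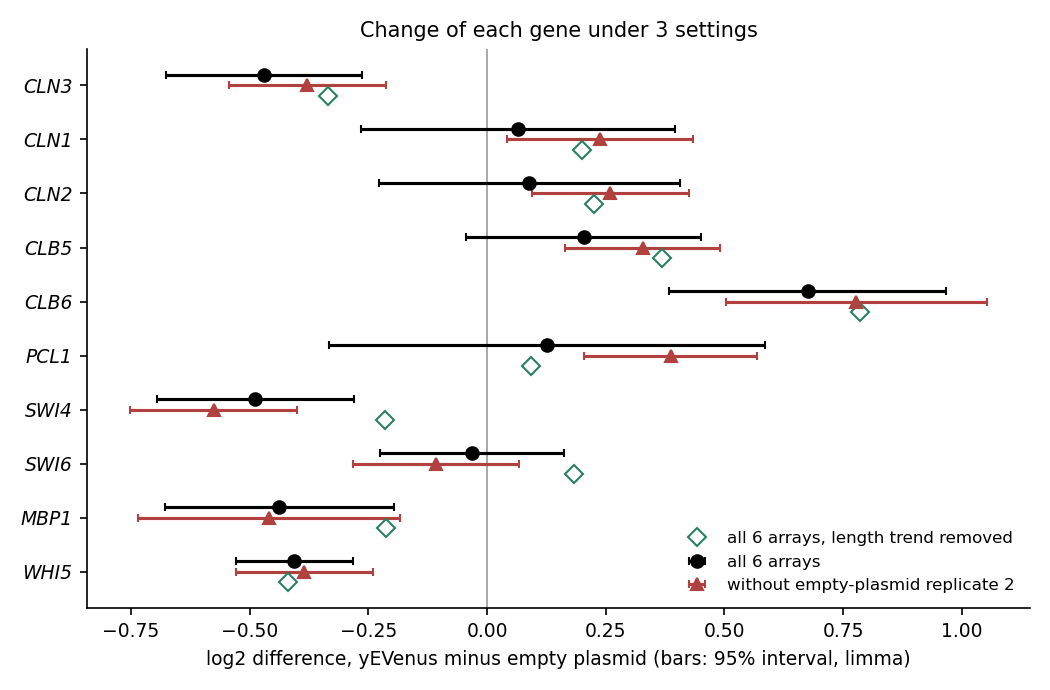
Log2 difference, yEVenus minus empty plasmid, of each gene with all 6 arrays (black circles), without empty-plasmid replicate 2 (red triangles) and with the trend on coding length removed (green diamonds); bars are 95% intervals from limma. CLN1, CLN2, CLB5 and PCL1 have intervals that include 0 with all arrays and lie above 0 without that replicate, and SWI4, MBP1 and SWI6 move up by 0.21 to 0.27 when the length trend is removed.

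Across all genes, the log2 differences had a trend on gene length. At the length of CLB6, which rose, the trend was -0.11. The 3′ to 5′ gap in the control probe sets of 7 yeast genes compares the signal at both ends of a transcript. It did not overlap between the groups for any of the 7 and was larger with yEVenus. Its mean over genes was 2.48 ± 0.067 with yEVenus and 1.83 ± 0.029 with the empty plasmid (SD of array means, n = 3 each). Whether RNA quality, copying or labelling made the gap differ was not tested. The members are of unequal length, from 840 nt for PCL1 and 888 nt for WHI5 to 3282 nt for SWI4, and the trend at their lengths ran from 0.034 for PCL1 to -0.27 for SWI4. With the trend removed, WHI5 was at -0.42 (adjusted p = 3.19e-04), CLN3 at -0.33 (adjusted p = 0.0112) and CLB6 at 0.79 (adjusted p = 0.00107). The falls of SWI4 and MBP1 shrank to -0.22 and -0.21, with adjusted p of 0.0575 and 0.0684, and were no longer called. CLB5 was called, at 0.37 (adjusted p = 0.0139), and SWI6 changed sign, to 0.18 (adjusted p = 0.0935). In this fit 2 of the 10 genes rose and 2 fell, while 65.0% of all genes passed, 31.4% upward and 33.5% downward. With the trend removed and empty-plasmid replicate 2 left out, 5 rose and 3 fell, while 62.9% of all genes passed; SWI4 was then at -0.31 (adjusted p = 0.0039) and MBP1 at -0.24 (adjusted p = 0.0796). The removal has a limit that the deleted gene shows: SSE1, with no transcript, was at 0.03 before it and at 0.20 after it (adjusted p = 0.0305).

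**Figure D4:**
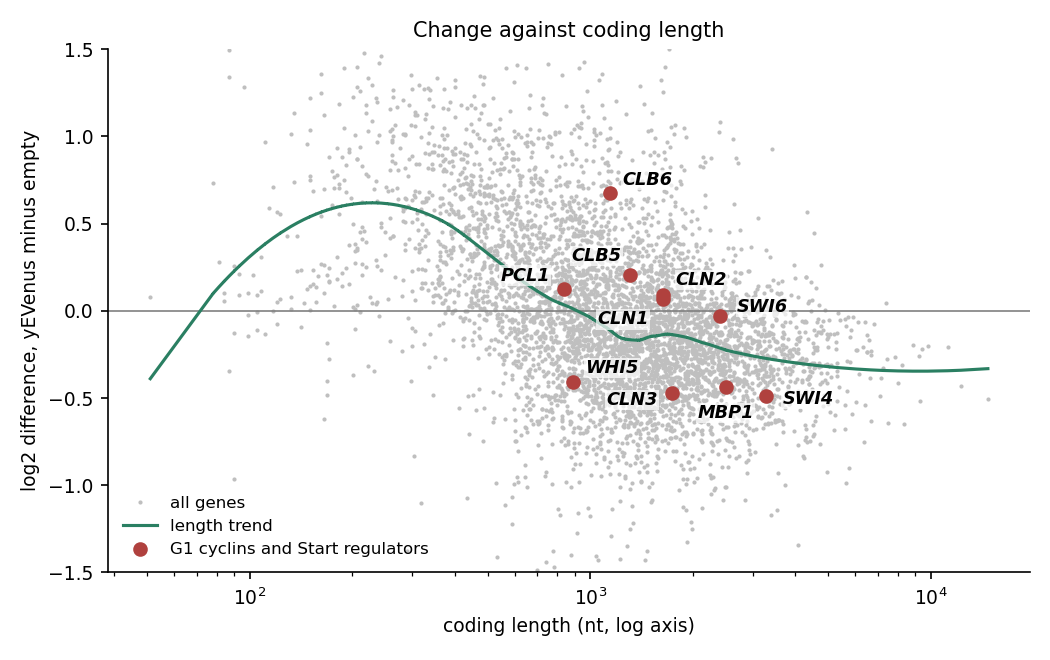
Log2 difference, yEVenus minus empty plasmid, against coding length on a log axis for all genes (grey; 54 genes beyond 1.5 in either direction are not shown) and the 10 genes described here (red), with the trend removed in the alternative fit (green). SWI4, MBP1 and SWI6 are the longest of the 10 and lie where the trend is between -0.27 and -0.21, and WHI5 and CLB6 lie far from it, below and above.

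The pairs CLN1 and CLN2, CLB5 and CLB6, and SWI4 and MBP1 were compared by the gap between their log2 levels on each array, which tests whether their changes differ. For CLB5 and CLB6, the gap was -0.39, -0.30 and -0.60 with yEVenus, against -0.055, 0.082 and 0.090 with the empty plasmid. The groups did not overlap, and CLB5 changed by 0.47 ± 0.10 (SE) less than CLB6. The exact two-sided permutation test gave p = 0.1, the smallest that 3 arrays against 3 allow, or 0.3 adjusted over 3 pairs. For CLN1 and CLN2 the difference in change was -0.02 ± 0.104 (SE; exact permutation p = 0.8), and for SWI4 and MBP1 it was -0.05 ± 0.145 (SE; exact permutation p = 0.8). The gaps of these pairs overlapped between the groups.

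Other regulators of Start were read from a list of 18 genes, of which 17 were analysed here. Of these, 4 rose and 7 fell (median log2 difference -0.13), 11 of 17 against the 70.4% of all genes. SRL3, a relative of WHI5 also known as WHI7, rose to 8.48 ± 0.128 with yEVenus, against 7.86 ± 0.124 with the empty plasmid (SD, n = 3 each), so that it moved opposite to WHI5. NRM1, the repressor that shuts off MBF in S phase, rose 1.52-fold. CKS1, a subunit of the Cdc28 kinase, rose by 0.31, but was at -0.084 with the length trend removed (adjusted p = 0.139). CDC28 itself was at 10.15 ± 0.117 with yEVenus, against 10.50 ± 0.042 with the empty plasmid (SD, n = 3 each), a log2 difference of -0.35 (limma, adjusted p = 0.00204). CDC28 and CKS1 are on chromosome II, whose median log2 difference was -0.32. The part of the chromosome in their differences was not tested.

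SWI5, an activator of genes of late mitosis and early G1 including SIC1, was at -1.13, and MCM1, which activates CLN3 and SWI4 transcription at the end of mitosis, was at -0.77. SIC1, the inhibitor of Clb and Cdc28 that must be destroyed before S phase, was at -0.54. FAR1, the inhibitor of Cln and Cdc28 used in the pheromone response, had 9.48 ± 0.032 with yEVenus and 9.40 ± 0.047 with the empty plasmid (SD, n = 3 each), a difference of 0.07 that did not pass (limma, adjusted p = 0.218). It passed with the length trend removed, at 0.30 (adjusted p = 0.00211). WHI3, an RNA-binding protein that restrains CLN3, was at -0.83; it was the second largest fall of the list by size and is named after its value was seen. In the SCF ubiquitin ligase, which marks Cln1, Cln2 and Sic1 for destruction, 3 of 6 genes fell and 0 rose, against the 70.4% of all genes called: CDC34 was at -0.91, CDC53 at -0.47 and SKP1 at -0.23. With the length trend removed 4 fell and 1 rose, with CDC53 at -0.26, SKP1 at -0.45, the RING subunit gene HRT1 at -0.36 and the F-box gene GRR1 at 0.25. CDC34, CDC53 and SKP1 are on chromosome IV, whose median was -0.075.

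The targets of SBF and MBF did not move as 1 group. Of 17 SBF targets of budding and the cell wall, 5 rose and 4 fell (median 0.0019), 9 of 17 against the 70.4% of all genes; with the length trend removed 7 rose and 2 fell. EXG1, a cell wall glucanase gene, rose by 0.36, PCL2, another Pho85 cyclin gene of G1, by 0.50 and TOS6 by 0.56; TOS6 is short, at 309 nt, and was at -0.018 with the length trend removed (adjusted p = 0.932). TOS4 was at -0.29, the mating-type endonuclease gene HO at -0.22 and the bud site gene BUD9 at -0.19; HO and BUD9 were not called with the length trend removed (adjusted p = 0.217 and 0.267). Of 27 MBF targets of DNA synthesis analysed here, 3 rose and 10 fell (median -0.087), 13 of 27 against the 70.4% of all genes. With the length trend removed 11 rose and 4 fell, against 31.4% upward and 33.5% downward over all genes. The median was then 0.083, so the balance of this list turned with that choice. RNR1, the large subunit of ribonucleotide reductase, was at 0.04 (limma, adjusted p = 0.749), or 0.28 with the length trend removed (adjusted p = 0.0248). The genes of replication protein A went apart: RFA1 on chromosome I was at -0.59, RFA2 at 0.52 and RFA3 at 0.80; RFA3 is short, at 369 nt, and was at 0.29 with the length trend removed (adjusted p = 0.00241). DPB2, of DNA polymerase epsilon, rose by 0.14; it was not called without empty-plasmid replicate 2 (adjusted p = 0.0825). RAD27, the flap endonuclease gene, fell by 0.68, and CTF18, of a clamp loader, by 0.41.

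Genes that share the Mcm1 control of CLN3 and SWI4 in late mitosis and early G1 include those of the MCM helicase. Of 7 such genes, 5 fell and 0 rose (median -0.49), against the 41.0% of all genes that fell and the 70.4% called, with MCM7 at -0.90, MCM2 at -0.75 and MCM4 at -0.49; MCM7 and MCM2 are on chromosome II, whose median was -0.32. With the length trend removed 4 of the 7 fell, the median was -0.24 and MCM4 was at -0.24. Of the 4 mitotic B-type cyclins, 3 fell, against the 41.0% of all genes that fell and the 70.4% called. CLB2 was at -0.58, CLB1 at -0.37 and CLB3 at -0.25. CLB3 was not called with the length trend removed (adjusted p = 0.391) or without empty-plasmid replicate 2 (adjusted p = 0.0721). Of the 6 B-type cyclin genes, CLB6 rose, CLB1, CLB2 and CLB3 fell, and CLB4 and CLB5 did not pass the test. Among 10 genes of Pho85 and its other cyclins, 5 rose and 3 fell, 8 of 10 against the 70.4% of all genes. PCL5, whose product directs degradation of Gcn4, rose 1.77-fold, PCL2 is named above and PCL7 rose by 0.29, while PCL10 was at -0.49, CLG1 at -0.47 and PCL6 at -0.35.

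**Figure D5:**
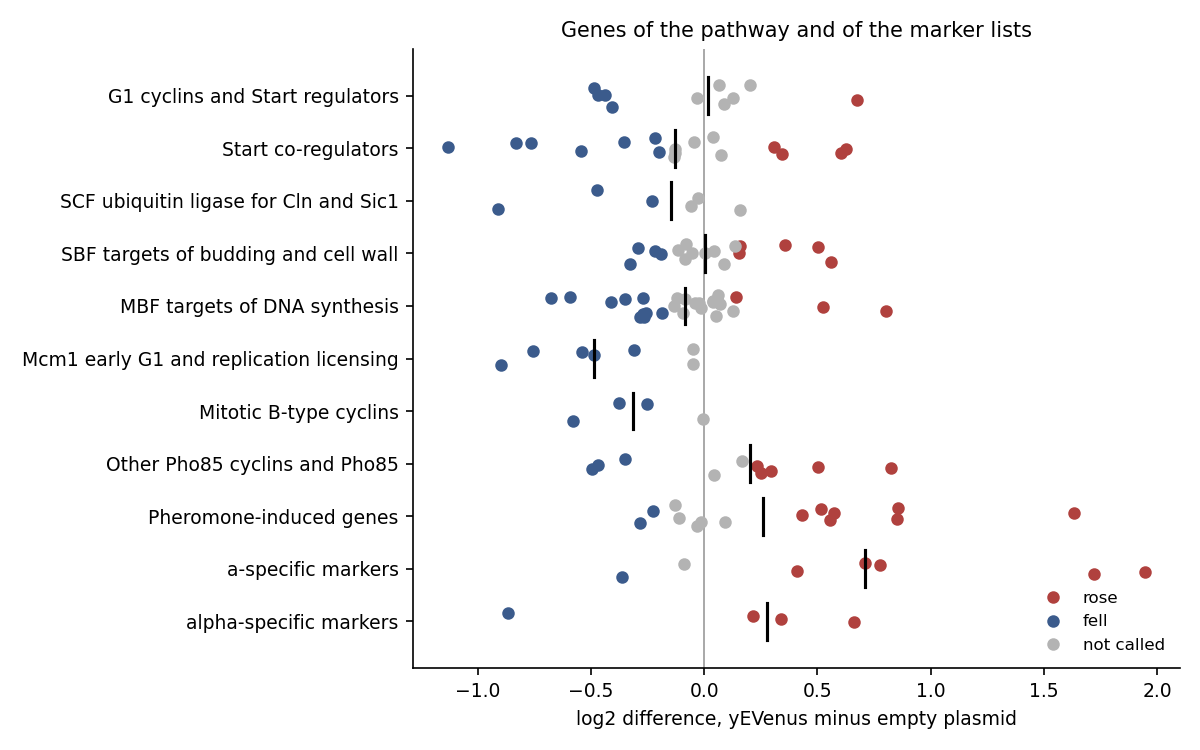
Log2 difference, yEVenus minus empty plasmid, of every analysed gene in each list (1 point a gene; red rose, blue fell, grey not called; vertical bars are medians; height within a row has no meaning). The 10 genes in the top row spread to both sides of 0, as do the SBF targets, and the Mcm1 list lies at or below 0, with a median of -0.49.

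Mating type and pheromone genes were read as well, because pheromone signalling holds cells in G1. Of 7 markers of a cells, 5 rose and 1 fell, 6 of 7 against the 70.4% of all genes. AGA2 was at 1.95, MFA1 at 1.72, ASG7 at 0.78 and STE6 at -0.36. With the length trend removed 5 rose and 0 fell. AGA2 and MFA1 are short, at 264 and 111 nt, and each was then at 1.34. In that fit ASG7 was at 0.60 and STE6 at -0.069 (adjusted p = 0.252). The log2 of the summed unlogged levels of the 7 markers was 14.55 to 14.61 with yEVenus, against 13.75 to 13.84 with the empty plasmid. The brightest genes weigh most in this sum, and the length trend was not removed from it. Of 4 markers of alpha cells, 3 were called upward and 1 downward, against the 70.4% of all genes called. With the length trend removed the counts were 2 and 1. SAG1 rose by 0.22 and STE3 was at -0.87. MF(ALPHA)2 was at 0.34, or -0.18 with the length trend removed (adjusted p = 0.184). It was dim with the empty plasmid, at 4.74, 4.84 and 4.47, close to the highest tag value of 4.32. The same sum for the 4 alpha markers was 8.98 to 9.10 with yEVenus, against 8.86 to 9.03 with the empty plasmid, and overlapped. The alpha-factor gene MF(ALPHA)1, the third of the upward calls, was at 3.98 with yEVenus and 3.32 with the empty plasmid, within the range of the tag probe sets without a target (highest value 4.32), so its difference is not read as a change. Of 14 pheromone-induced genes, 7 rose and 2 fell, 9 of 14 against the 70.4% of all genes, and with the length trend removed 10 rose and 0 fell. FIG1 rose 3.10-fold, AGA1 1.81-fold and PRM3 by 0.56, or 0.086 for PRM3 with the length trend removed (adjusted p = 0.276). FIG1 was dim with the empty plasmid, at 5.05, 5.07 and 4.86, not far above the highest tag value of 4.32. STE12 and FUS2 were at -0.28 and -0.23, and neither was called with the length trend removed (adjusted p = 0.128 and 0.503). The part of the pheromone genes in the changes of the cyclin genes was not tested.

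The genes with patterns most like CLB6, by the root mean square distance of log2 deviations from the gene mean over the 6 arrays, were ALP1, an arginine permease gene, at 0.0905, REC102, a gene of meiotic recombination, at 0.0962, and YLR342W-A at 0.0987. Their log2 differences were 0.72, 0.63 and 0.61; that these are near the value of CLB6 follows from how they were chosen. Nearest to CLN2 were GAT1, a GATA factor gene, at 0.0515, HSP26, a small heat shock protein gene, at 0.0557, and YOX1, a repressor of early G1 genes and itself an SBF target, at 0.0638. On empty-plasmid replicate 2, where CLN2 was highest, they were at 9.89 for GAT1, 11.02 for HSP26 and 9.91 for YOX1, which again follows from the choice.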

How the data were processed

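The authors deposited log2 expression values for each probe set; the submitters' processing notes list RMA and R 3.2.0. RMA equalises the arrays' distributions, so differences are relative to the bulk of transcripts. Labelling was from the 3′ end, per the labels' protocols; any genome build or filter is not given in the sources used here. Array medians were 9.06 to 9.13. Of 5900 probe sets, 5498 name 1 gene, 0 several and 402 none; 12 symbols were updated through a RefSeq table of assembly R64, which gave chromosome and length. The brightest probe set stood for each of 47 genes with several.

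Group means were tested over 5449 genes with lmFit and eBayes of limma 3.58.1 (R 4.3.3), with 4 residual degrees of freedom; the code was tested on simulated data. Arrays are independent colonies, per the labels; their number limits precision. Lengths, multiples of 3 in 97.0% of genes, are called coding lengths. The length trend was a loess fit (span 0.5) per array. Members and lists were chosen with earlier results of these data known. Beyond the 10 members, named genes are FAR1, SIC1, CDC28, RNR1 and PCL2, up to 3 genes a list and direction with the smallest p among those called, and the 3 patterns nearest to CLB6 and CLN2. Alternatives were 3 normalizations, the length trend, dim genes, probe set rules, variance models, array weights, a replicate block, a minimum of 1.2-fold, chromosomes I and II, and each array left out; removing the length trend together with empty-plasmid replicate 2, and the lists without that array, were added after seeing the data.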

Additional observations from a re-analysis of the deposited data

How the results depend on the processing

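CLB6 kept its rise and WHI5 its fall, past the threshold, under every alternative in which they were tested; WHI5, SWI4 and CLB5 were not tested when the dimmest 25% of genes were left out, and CLN3 was not when chromosomes I and II were. The count of the 10 genes called was 5 with all arrays, 3 of the 7 still tested without the dimmest genes, 2 against a minimum of 1.2-fold, 5 to 9 on leaving out each array (9 without empty-plasmid replicate 2), and 8 without that array and the length trend together. The count over all genes was 3835, or 1753 against 1.2-fold and 3359 to 3809 on leaving out each array. Against 1.2-fold, CLN3, SWI4 and MBP1 had adjusted p of 0.0718, 0.0561 and 0.168. CLB5 was called under cyclic loess (0.28, adjusted p = 0.0492) and median centring (0.27, adjusted p = 0.0482). SWI6, never called, changed sign under cyclic loess (0.056), median centring (0.037), removal of the length trend (0.18) and that removal without empty-plasmid replicate 2 (0.10). On leaving out each array the log2 difference ran from -0.11 to 0.036 for SWI6, from -0.074 to 0.24 for CLN1, from -0.032 to 0.26 for CLN2 and from -0.018 to 0.39 for PCL1. The difference in change ran from -0.11 to 0.065 for CLN1 minus CLN2, from -0.17 to 0.048 for SWI4 minus MBP1 and from -0.54 to -0.39 for CLB5 minus CLB6. In the SCF list 5 genes were called with the length trend removed. The cause was not tested. Same-numbered arrays had correlations of their deviations of 0.19, -0.13 and 0.20, and 1 of the 3 yEVenus arrays correlated best with its own number. With 3 arrays a group, these values do not settle whether replicate numbers pair the arrays. The replicate block called 5 of the 10 genes again, with CLB6 at 0.68 (adjusted p = 0.00731).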
